A study of Mus musculus with 6 samples.

Results

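Small RNA from mouse heart held 2 families of CCA-ending tRNA fragments that are alike except for 1 base, an A in the family of tRF_3_61 and a G in the family of tRF_3_62. A family here is every sequence of the CCA-ending class (tRF_3) whose last 13 nt equal those of the named fragment. The rule found 9 sequences for tRF_3_61 and 3 for tRF_3_62, so 12 of the 347 CCA-ending sequences and of the 1336 tRNA fragment sequences counted in all. The families were chosen by a measured value: in an earlier reading of these counts tRF_3_62 was higher in knockout hearts and tRF_3_61 was not called. The difference between knockout and control is therefore given below as a description. The counts of calls from a fit across all sequences describe the members too and support nothing.

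The libraries came from whole hearts of C57BL/6 mice. Mice of both groups (3 each) carried an Elac2 exon between loxP sites. The control mice had no cre, and the knockout mice also carried cre under the muscle creatine kinase promoter, which is active in heart and skeletal muscle, so other cells of the heart would keep the gene. The titles call the controls L/L while their genotype field reads Elac2 +/+; ages are not given in the labels. Elac2 mRNA was not analysed here, so the genotypes were not checked against the gene itself, and tRNA fragments mark no cell type, so the tissue label was not checked either. Counts are given as 1 library per mouse, so p-values and SDs refer to mice, while the binomial intervals below cover counting error only. The summed tRNA fragment count was 235046 to 773252 in control libraries and 45354 to 61712 in knockout libraries, and the CCA-ending class held 2346 to 6969 counts in controls and 3578 to 3973 in knockouts. These are raw counts that also depend on how deeply each library was sequenced, so they are not read as amounts of RNA. In bulk tissue a lower count can also mean fewer cells of a type or less RNA per cell, and these cannot be told apart.

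A tRNA is transcribed with extra bases at its 3′ end, the trailer. RNase Z, encoded by Elac2, cuts the trailer off, and another enzyme then adds CCA to the exposed end. A fragment that ends in CCA thus comes from a tRNA that has lost its trailer and gained CCA. The CCA end does not show which enzyme removed the trailer. In the folded tRNA the first and last bases pair as the acceptor stem. Next to it on the 3′ side lies the T arm, a short hairpin whose loop is a common cutting site for 3′ fragments.

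The pairs of equal length are shown first, because the ratios below compare them 1 length at a time; the capital marks the base that differs, the eighth from the 3′ end.
tRF_3_31: ccgggcggAaacacca
tRF_3_32: ccgggcggGaacacca
tRF_3_37: accgggcggAaacacca
tRF_3_38: accgggcggGaacacca
tRF_3_61: aaccgggcggAaacacca
tRF_3_62: aaccgggcggGaacacca

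Counted from 1 at the 5′ end of the fragment, the change from the tRF_3_61 family to the tRF_3_62 family is A9G at 16 nt, A10G at 17 nt and A11G at 18 nt. No other base differs within a pair. The longest well-counted member of the A family is the 22-nt fragment tRF_3_175, which reaches further into the T loop and has no G counterpart in the tables. Its 24 counts over the knockout libraries are too few to show that a G form is absent.
tRF_3_175: tcgaaaccgggcggAaacacca

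The A family was placed on a valine tRNA gene. Without its CCA, tRF_3_61 matched 1 of 32851 RefSeq promoter windows (build GRCm38.p6, the assembly of mm10, which the submitters' processing notes name) and 0 of 141767 GENCODE transcripts. The window precedes the gene Gm46404 and holds the tRNA gene n-TVcac9, a valine tRNA with anticodon CAC, at chr13:23446142-23446214 on the minus strand. No GENCODE gene or exon overlaps that position. The match covers chr13:23446142-23446156, the last bases of the tRNA gene. It is a match and not proof that the reads came from this copy, since other valine tRNA genes can share the same 3′ end. tRF_3_62 without its CCA matched none of the windows and none of the transcripts on either strand. The rest of the genome was not searched, so whether a mouse tRNA gene holds the G form was not examined.

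The gene is shown to place the fragments in the tRNA. The capitals mark the 7-base strands of the acceptor stem, which pair over their whole length.
n-TVcac9: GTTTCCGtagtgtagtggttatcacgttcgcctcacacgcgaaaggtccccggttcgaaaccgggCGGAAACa

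Its 3′ end is shown again with the 20 genomic bases that follow it in capitals, since this is where RNase Z would cut; the genome has no CCA there.
n-TVcac9 3′ end: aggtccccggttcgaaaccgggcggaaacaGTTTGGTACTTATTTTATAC

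The base that separates the families lies in the acceptor stem. All 9 sequences of the tRF_3_61 family equal the 3′ end of the gene plus CCA. The 3 sequences of the tRF_3_62 family differ from it by 1 base, A69G, counted from the 5′ end of the gene. Position 69 faces position 4 of the gene, which is a T, so the A family would form an A:T pair there and the G family a G:T pair. A 5′ strand that would face the G family with no G:T pair, GTTCCCG, starts 0 of the 5′ fragments (class tRF_5) in the tables. The strand that faces the A family, GTTTCCG, starts 49 of them, with 2599, 6695 and 4798 counts in control libraries 1, 2 and 3 and 2184, 2128 and 3252 in knockout libraries 1, 2 and 3. No trailer sequence (class tRF_1) in the tables equals the bases that follow n-TVcac9.

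The 5′ ends of the members cluster where the T loop meets its stem. In n-TVcac9 the T loop, TTCGAAA, lies between the 5-base strands of its stem, CCCGG and CCGGG. The 16-nt fragments tRF_3_31 and tRF_3_32 begin with the first base of the 3′ stem strand. The 17-nt fragments tRF_3_37 and tRF_3_38 begin 1 base earlier, with the last base of the loop, and the 18-nt fragments tRF_3_61 and tRF_3_62 begin 2 bases earlier. The 22-nt tRF_3_175 begins 6 bases before the stem strand, near the start of the loop.

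The most common length in both families was 17 nt. In the tRF_3_61 family the 17-nt form made up 52.3%, 57.6% and 46.3% of the family's counts in control libraries 1, 2 and 3, and 60.1%, 60.5% and 56.2% in knockout libraries 1, 2 and 3. In the tRF_3_62 family it made up 67.5%, 74.3% and 71.4% in the knockout libraries, where the family had 40, 35 and 28 counts; the controls had 6, 2 and 1 counts, too few for a profile. All other CCA-ending sequences together held 2.14% to 3.16% of their counts at 17 nt in the 6 libraries. Of the 27 families of CCA-ending sequences with at least 100 counts over the 6 libraries, 17 nt was the leading length in 2, and these were the families of tRF_3_61 and tRF_3_62. In 14 families the leading length was 22 nt, in 7 it was 18 nt and in 4 another length. The tRF_3_62 family reached that minimum, which was set after the profiles had been seen, through its knockout counts: 9 of its 112 counts came from controls.

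The A family was abundant in hearts of both genotypes, and its counts overlapped between them. Summed over its 9 sequences it had 1168, 144 and 240 counts in control libraries 1, 2 and 3 and 551, 352 and 379 in knockout libraries 1, 2 and 3. Control library 1 was the highest of all and the other controls the lowest. As a share of all CCA-ending counts the family averaged 10.7% ± 5.48 in controls and 11.2% ± 2.61 in knockouts (SD, n = 3), with all 3 knockout values inside the range of the controls, 6.14% to 16.8%.

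The G family was rare in control hearts and lay higher in every knockout library. It had 6, 2 and 1 counts in controls and 40, 35 and 28 in knockouts. As a share of all CCA-ending counts it lay above 0.0861%, the highest control value, in each knockout library. The means were 0.0698% ± 0.0275 (SD, n = 3) and 0.905% ± 0.175 (SD, n = 3). In CPM (counts scaled to a common TMM-adjusted library total) it stood at 14.4 ± 9.79 in control and 288 ± 27.9 in knockout libraries (SD, n = 3). On that scale the log2 fold change was 4.19 ± 0.80 (SE) for the G family and 0.56 ± 0.67 (SE) for the A family. Without control replicate 1 these values were 4.81 and 1.57, and with library totals alone in place of TMM they were 6.11 and 2.04; the scaling moves both families, while a ratio within a library does not depend on it.

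Within a library, G reads were set against the sum of A and G reads. The share of the G family was 0.511%, 1.37% and 0.415% in control libraries 1, 2 and 3 and 6.77%, 9.04% and 6.88% in knockout libraries 1, 2 and 3. The groups did not overlap. The means were 0.765% ± 0.526 in control and 7.56% ± 1.28 in knockout hearts (SD, n = 3), a difference of 6.80 percentage points. Put another way, there were 72.0 to 240 reads of the A family for each read of the G family in controls and 10.1 to 13.8 in knockouts. Exact 95% binomial (Clopper-Pearson) intervals of the shares reached at most 4.86% in a control library and started at 4.62% or higher in each knockout library. They touch because control library 2 rests on 2 G counts among 146. These intervals, like all others here, cover counting error only, since amplified reads are not independent molecules. How the authors assigned a read that differs by 1 base from a listed sequence is not given in the labels, and its part in these ratios was not tested.

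At 17 nt the pair was tRF_3_37 and tRF_3_38. tRF_3_37, the most abundant member, had 611, 83 and 111 counts in controls and 331, 213 and 213 in knockouts, so control library 1 lay above and the others below every knockout library. tRF_3_38 had 4, 2 and 1 counts in controls and 27, 26 and 20 in knockouts, with no overlap. The share of tRF_3_38 in the pair was 0.650%, 2.35% and 0.893% in control libraries 1, 2 and 3 and 7.54%, 10.9% and 8.58% in knockout libraries 1, 2 and 3. The means were 1.30% ± 0.921 and 9.0% ± 1.71 (SD, n = 3), a 6.93-fold higher mean in knockouts. The exact binomial interval of control library 2, which rests on 2 tRF_3_38 counts among 85, reached 8.24%. That is above the share of knockout library 1. It is also above the lower bounds of knockout libraries 1, 2 and 3, which were 5.03%, 7.23% and 5.32%. The intervals of control libraries 1 and 3 ended below these bounds, at 1.66% and 4.87%.

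At 18 nt the pair was tRF_3_61 and tRF_3_62. tRF_3_61 had 370, 47 and 86 counts in controls and 135 and 92 in knockout libraries 1 and 2; knockout library 3 had 110 reads of the pair, all but 7 of them tRF_3_61. Control library 1 again lay above and the others below every knockout library. tRF_3_62 had 2, 0 and 0 counts in controls and 11, 8 and 7 in knockouts. Its share was 0.538% in control library 1. The count of 0 allows up to 6.38% of the 47 reads in control library 2 and up to 3.49% of the 86 in control library 3. In knockout libraries 1, 2 and 3 the share was 7.53%, 8.0% and 6.36%, so that knockout library 3 lay just under the limit for control library 2. The exact 95% binomial interval of control library 2 reached further, to 7.55%, above the shares of knockout libraries 1 and 3. With the libraries of a group summed, the ratio of G to A reads was 19.8-fold higher in knockouts, with a 95% counting interval of 4.89 to 173 that rests on 2 control counts. The same ratio at 17 nt was 11.1-fold higher with an interval of 5.07 to 28.7, and both intervals overlap. Control library 1 supplied 372 of the 505 control reads of the pair at 18 nt and 615 of the 812 at 17 nt. The summed ratios therefore weigh that library most, unlike the 6.93-fold difference in mean share at 17 nt.

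At 16 nt the pair was tRF_3_31 and tRF_3_32, and the depth did not suffice for a comparison by library. tRF_3_31 had 165, 9 and 28 counts in controls and 73, 40 and 56 in knockouts. tRF_3_32 had 0 counts in all 3 controls and 2, 1 and 1 in knockouts, a share of 2.67%, 2.44% and 1.75%. The count of 0 allowed 1.82%, 33.3% and 10.7% in control libraries 1, 2 and 3, so a difference was not detectable at this depth. The 16-nt form took 5.0%, 2.86% and 3.57% of the G family in the knockout libraries against 13.3%, 11.4% and 14.8% of the A family in the same libraries. Each A value lay inside the exact 95% binomial interval of its G value, whose upper bounds were 16.9%, 14.9% and 18.4%.

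Within the A family the 18-nt form held a smaller share in each knockout library than in any control. The ratio of 17-nt to 18-nt counts was 1.65, 1.77 and 1.29 in control libraries 1, 2 and 3 and 2.45, 2.31 and 2.07 in knockout libraries 1, 2 and 3, with no overlap. The mean 18-nt share was 33.4% ± 2.18 in controls against 25.9% ± 1.35 in knockouts (SD, n = 3), also without overlap. Both values use the same 18-nt counts, so they are not separate results. Other CCA-ending families were not compared singly, so how common such a shift is was not tested. The 16-nt share, the 17-nt share and the ratio of 16-nt to 18-nt counts overlapped between the groups. Among all other CCA-ending sequences the ratio of 17-nt to 18-nt counts was 0.0630 to 0.0835 in controls and 0.0667 to 0.0794 in knockouts. In the G family the ratio was 2.45, 3.25 and 2.86 in the knockout libraries, where its 18-nt form had 11, 8 and 7 counts.

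In a fit across all sequences (edgeR quasi-likelihood, TMM scaling, Benjamini-Hochberg adjusted p under 0.05), 6 of the 12 members passed the filter on low counts. Of these, 2 were called higher in the knockout and 0 lower. Of all 254 sequences tested, 32.7% were called in either direction and 15.7% were called higher, as were 15.8% of the 57 CCA-ending sequences tested. Nothing can be read from the members' count: this contrast chose them, and tRF_3_38 and tRF_3_62, with at most 4 counts in a control library, passed the filter through their knockout counts. The filter worked on unadjusted library totals, so fewer counts sufficed in the knockout libraries, whose totals were smaller. The A family's tRF_3_175 passed through its knockout counts too. The called members were tRF_3_38, with a log2 fold change of 3.97 ± 0.78 (SE), and tRF_3_62, with 4.09 ± 0.91 (SE). The value for tRF_3_62 rests on the 2 counts of control library 1: without that library, both other controls are at 0 counts and the fitted value, which then depends on the prior count, was 6.29. With library totals alone it was 6.09 for tRF_3_62 and 6.06 for tRF_3_38. At an unadjusted p under 0.05 edgeR also gave 2 higher and 0 lower, and DESeq2 and limma-voom called the same 2 and 0 lower. In the authors' deposited table the log2 fold changes were 3.90 ± 0.98 for tRF_3_38 and 4.27 ± 1.59 for tRF_3_62 (SE).

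The tested members of the A family had log2 fold changes of 0.57 ± 0.80 for tRF_3_31, 0.72 ± 0.67 for tRF_3_37, 0.18 ± 0.67 for tRF_3_61 and 0.67 ± 0.71 for tRF_3_175 (SE), and none was called. The median over the 6 tested members was 0.69, against 0.06 over all sequences tested and 0.29 over the CCA-ending ones. Nothing can be read from this median, since the 6 include tRF_3_38 and tRF_3_62, which this contrast chose. The values of the A family depended in part on control library 1. Without it tRF_3_31 and tRF_3_37 were called higher as well, with log2 fold changes of 1.94 and 1.73, in a fit that called 23.2% of its sequences higher; tRF_3_61 was still not called, at 1.07, and tRF_3_175 did not pass the filter. The sign for tRF_3_61 turned negative when low counts were kept or when control replicate 2 or 3 was left out.

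The 6 members that did not pass the filter were rare, with at most 14 counts over the 6 libraries. tRF_3_98, of 19 nt, had 10, 0 and 3 counts in controls and 1, 0 and 0 in knockouts. tRF_3_32 is described above. The others, tRF_3_20 of 15 nt, tRF_3_140 of 21 nt, tRF_3_223 of 23 nt and tRF_3_243 of 24 nt, had 1 to 4 counts over the 6 libraries. The 22-nt tRF_3_175 had 11, 2 and 10 counts in controls and 10, 7 and 7 in knockouts, which overlapped.

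The pair was then set beside the other CCA-ending families whose last 13 nt differ by 1 base. With at least 100 counts in the larger and 10 in the rarer family there were 10 other pairs, some of which share a family. The share of the rarer family in each pair was compared between the group means. Their control shares were mostly far above the 0.765% of the G family, so fold values are not set side by side. Of the pairs with a rare partner, the one led by tRF_3_179 and tRF_3_68 had a share of 1.67% ± 0.207 in controls and 0.425% ± 0.370 in knockouts (SD, n = 3). The one led by tRF_3_202 and tRF_3_204 had 4.42% ± 5.74 and 1.13% ± 0.214 (SD, n = 3). Its control shares were 0.0%, 10.9% and 2.35%, so its groups overlapped. The knockout libraries lay above all controls in 1 of the 10 other pairs, below them in 4, and overlapped in 5. In the 1 that lay above, led by tRF_3_203 and tRF_3_172, the rarer family's share was 21.5% ± 14.6 in control and 40.1% ± 0.383 in knockout hearts (SD, n = 3). Of the 4 that lay below, the one led by tRF_3_172 and tRF_3_204 had 22.2% ± 11.1 and 3.3% ± 0.0677 (SD, n = 3). The family of tRF_3_172 is the larger in the pair that lay above and the rarer in this one. No difference between pairs was tested.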

How the data were processed

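Small RNA libraries from 3 control and 3 knockout hearts were compared. Per the labels' protocols RNAs of 15 to 35 nt were selected and each mouse had 4 technical replicates; nothing used here says how these were merged. The tools named, without order, per the submitters' processing notes were cutadapt (1.1.4), Bowtie2 (2.2.9) and DESeq2 (1.16.1), and the build was mm10. The authors deposited raw counts per sequence, normalized counts (a signal equal to the raw count divided by 1 factor per library, to a relative 7.5e-11), and a table of their own comparison (mean signal, log2 fold changes and their errors, scores, p-values). How reads that fit several near-identical sequences were assigned is not given, and values of 1-base variants depend on it.

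Shares were computed from raw counts with exact binomial intervals (SciPy 1.17.1). Counts were fitted with edgeR 4.0.16 in R 4.3.3 (group only, TMM, filterByExpr with a minimum count of 10), checked on simulated data; limma 3.58.1 (voom) and DESeq2 1.42.0 served as alternatives. A count of 0 was taken to allow 3 counts. The ratio of summed counts has a conditional exact interval. Log ratios used a pseudocount of 0.5 counts. Acceptor and T stems were read from base pairing in n-TVcac9, and sequences and tRNA positions are from RefSeq (GRCm38.p6). Members with at least 10 counts in all, and both members of each pair of equal length, were named. Members, lists and tests were chosen with earlier results of these data known. The alternatives included other scalings and filters, other tools, other family definitions, a replicate block and leaving out each library.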

Additional observations from a re-analysis of the deposited data

How the results depend on the processing

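The difference in the G family's share, 6.80 percentage points, was 5.30 without the 17-nt pair and 6.06 to 7.20 when each library was left out in turn. It was 6.91 over the lengths held by both families. Normalized counts, the range of 15 to 35 nt and identical sequences counted once cannot change it, since 1 factor per library cancels, all members lie in the range and no sequence is listed more than once; families by 12 or 15 nt also gave 6.80. The log2 ratio of the pairs (knockout minus control, pseudocount of 0.5) depended on the pseudocount. At 16 nt it was 1.2, then −0.019 with a pseudocount of 3, and 0.08 to 2.15 with a library left out; at 17 nt it was 2.79, then 1.93 with 3, and 2.31 to 3.32; at 18 nt it was 3.48, then 2.80 with 1 and 1.78 with 3, and 3.29 to 3.73. Of the members, 2 were called higher, but 1 with at least 10 counts in 3 libraries, which left tRF_3_62 untested, and 2 to 4 with a library left out. For the A family the log2 fold change was 2.04 with library totals and 0.12 to 1.57 with a library left out. For the G family it was 6.11 with library totals, 4.62 with upper-quartile scaling, 3.81 with no filter and 3.82 to 4.81 with a library left out. Over all sequences the median was 2.13 with library totals and 0.43 with upper-quartile scaling. For tRF_3_61 the value was −0.13 when low counts were kept, −0.25 and −0.049 when control replicate 2 or 3 was left out, and −0.25 to 1.07 over the libraries left out. The cause of these moves was not tested.

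Same-numbered libraries deviated together only weakly (correlations of −0.0054, 0.289 and 0.0452), and only replicate 2 correlated best with its own number. So few libraries cannot exclude a pairing, and the main fit used none. With the replicate block 2 members were called higher; the mean of the same-number differences in share equals the difference of the means, 6.80, by construction. The counts of 1 to 6 in the controls limit each ratio of the G family.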

Other observations

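A further tail differs from that of tRF_3_61 by 1 base in the acceptor stem, and its facing strand is present among the 5′ fragments. Its 3 CCA-ending sequences had 1, 1 and 1 counts in controls and 5, 1 and 0 in knockouts, too few to compare. The strand that pairs with it over 7 bases, GTTTCTG, starts 18 of the 5′ fragments, with 26, 23 and 22 counts in control libraries 1, 2 and 3 and 53, 38 and 43 in knockout libraries 1, 2 and 3. Of all reads that start with this strand or with GTTTCCG, this strand held 0.991%, 0.342% and 0.456% in controls and 2.37%, 1.75% and 1.31% in knockouts, and the groups did not overlap. With G:T pairs allowed, GTTTCTG also pairs with the tails of tRF_3_61 and tRF_3_62. Other 5′ starts were not compared, so how common such a difference is was not tested.

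Set against the 5′ fragments that start with GTTTCCG, the A family had 0.449, 0.0215 and 0.05 counts per 5′ count in control libraries 1, 2 and 3 and 0.252, 0.165 and 0.116 in knockout libraries 1, 2 and 3. Control library 1 lay above and the other controls below the knockouts.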
